A study of Homo sapiens with 18 samples.

Results

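Untreated cells of the human multiple myeloma lines MM1R and MM1S were compared by RNA sequencing, with 3 libraries of MM1R cells and 3 of MM1S cells out of the 18 libraries of the series. All 6 libraries came from cells without added compound. The libraries were chosen by their labels, as the columns of the raw count table that name a line and no treatment. MM1S cells undergo cell death in response to glucocorticoids. MM1R cells have the same origin, were described by the study as defective in the glucocorticoid receptor, and do not. Replicates 1, 2 and 3 were passages 4, 6 and 7 of MM1R cells and passages 16, 22 and 23 of MM1S cells, so that line and passage range cannot be told apart. Each line is a single line, and the p-values measure only the spread between its passages. The other 12 libraries were treated with 5 µM RSL3, an inhibitor of the lipid peroxidase GPX4, for 3 h, with or without 2 µM Fer-1 (ferrostatin-1, which blocks lipid peroxidation) given 2 h earlier. They are used here only to look at the line difference in other cells.

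Glucocorticoids bind the glucocorticoid receptor, a nuclear receptor encoded by NR3C1 that moves to the nucleus and changes the transcription of its target genes. Loss of the receptor is a known route by which myeloma cells, which are malignant plasma cells, escape killing by dexamethasone. The lines were compared to find which genes differ between a glucocorticoid-resistant and a glucocorticoid-sensitive line before any treatment.

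The raw counts of the untreated libraries summed to between 17817681 and 19368343 per library. Of 43735 genes, 13270 passed the filter on low counts. Values are given as CPM, that is, counts per 1000000 reads after TMM scaling of the 6 libraries, and as the log2 fold change of MM1R over MM1S, where a positive value is higher in MM1R. Differentially expressed genes (DEGs) had an FDR under 0.05, computed with the edgeR quasi-likelihood test and adjusted over all genes tested by Benjamini-Hochberg, and a log2 fold change beyond 1 in either direction. All genes listed as plasma cell markers were above 1 CPM in both lines (10 of 10), with a summed level of 18046 to 19489 CPM in MM1R and of 11601 to 12981 CPM in MM1S libraries. Of the markers of T cells, myeloid cells, stromal fibroblasts, epithelial, erythroid and endothelial cells, the summed level per type was at most 33.5 CPM in any library, and 1 marker was a DEG. This was the collagen gene COL1A1 of stromal fibroblasts, at 2.38, 2.00 and 1.503 CPM in MM1R and 1.09, 0.627 and 0.456 CPM in MM1S libraries, and was a DEG in 2 of the 6 fits that left out 1 library (largest FDR 0.147, edgeR's quasi-likelihood test). The other stromal markers include 4 of 6 (COL1A2, COL3A1, LUM and PDGFRA) at 0. Fewer cells of a type and less RNA per cell cannot be told apart in these bulk libraries.

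One library stood apart from the other libraries of its line. In a principal component analysis, the first component (63.9% of the variance) separated the lines, with the MM1R libraries at -34.7, -36.4 and -40.3. MM1S replicates 2 and 3 lay at 43.99 and 45.8, and MM1S replicate 1, the earliest MM1S passage, at 21.6. In 85 of the 651 DEGs described next (13.1%), MM1S replicate 1 was nearer to the MM1R mean than to that of the other MM1S libraries on a log2 scale, compared with 2 to 13 DEGs for each of the other 5 libraries. For several of the genes named below, log2 fold changes are given with and without this library.

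In total, 651 genes (4.91% of those tested) were DEGs between the untreated lines. Of these, 374 (2.82%) were higher and 277 (2.09%) lower in MM1R cells. The difference was over 4-fold for 148 of the higher and 105 of the lower genes. The 3 libraries of one line lay wholly above those of the other for all 651 DEGs, as they did for 32.7% of all genes tested. The median log2 fold change over all tested genes was 0.02. Of the 651 DEGs, 318 (48.8%) remained DEGs in each of the 6 fits that left out 1 library. Without MM1S replicate 1, the number of DEGs rose to 1021 (677 higher, 344 lower), and 617 of the 651 were among them. The number fell to 398 without MM1R replicate 2 and to 427 without MM1S replicate 2 or without MM1S replicate 3. Without MM1R replicate 1 it was 695, with 340 higher and 355 lower. A fit with offsets for GC content, on the 90.7% of tested genes with a GC value, gave 542 DEGs, 280 higher and 262 lower. The excess of higher over lower genes thus depended on the libraries and the fit.

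**Figure D1:**
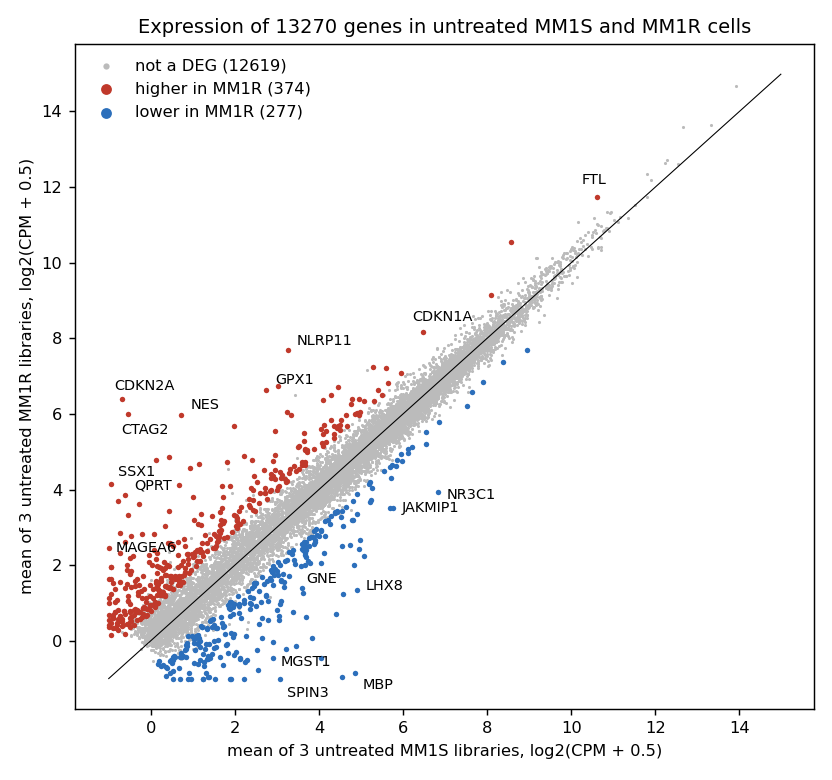
Mean expression of the 13270 tested genes in untreated MM1S (x axis) and MM1R cells (y axis), each as log2(CPM + 0.5) over 3 libraries, with DEGs higher in MM1R in red and lower in MM1R in blue. Genes at the left and bottom edges, such as CDKN2A, SSX1, MBP and SPIN3, were expressed in one line and at or near 0 in the other.

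NR3C1, the glucocorticoid receptor gene (hg19 chromosome 5, from 142657496), was measured first because it checks the labels of the lines. It was at 14.7, 14.1 and 15.4 CPM in MM1R and at 152, 96.6 and 90.8 CPM in MM1S libraries. All MM1R libraries were thus below all MM1S libraries, with MM1S replicate 1 the highest. The log2 fold change of NR3C1 was -2.94 with a standard error of 0.20 (FDR = 5.37e-05, edgeR's quasi-likelihood test), and it was a DEG in each of the 6 fits that left out 1 library. In the treated libraries, scaled over all 18 libraries, NR3C1 was at 15.4 to 21.95 CPM in 5 of the 6 MM1R libraries and at 93.6 to 377 CPM in the MM1S libraries. The sixth, MM1R replicate 2 with Fer-1 and RSL3, was at 49.9 CPM.

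Among the 18 tested genes of a list for the glucocorticoid receptor and its co-factors, NR3C1 was the only DEG (5.56%, against 4.91% of all tested genes). The 18 include NR3C2, HSD11B2 and CASP1, which are not co-factors of the receptor. The receptor's chaperones had similar levels in both lines. HSP90AB1 had a log2 fold change of -0.16 with a standard error of 0.16, HSP90AA1 of -0.19 with 0.17, and PTGES3, a co-chaperone, of -0.25 with 0.14 (FDR between 0.274 and 0.569, edgeR's quasi-likelihood test). NR3C2, the mineralocorticoid receptor gene, was at 6.32 ± 1.38 against 11.4 ± 2.50 CPM (SD, n = 3 per line), a log2 fold change of -0.85 that is short of the fold threshold (FDR = 0.0412, edgeR's quasi-likelihood test).

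Of 25 tested genes known to be induced by glucocorticoids, 1 was a DEG, which is 4% against 4.91% of all tested genes, and their median log2 fold change was -0.07. The DEG was DDIT4, an inhibitor of mTORC1 signaling, at 29.9, 34.3 and 39.4 CPM in MM1R and 9.06, 14.5 and 8.72 CPM in MM1S libraries. It was higher in MM1R, the line with less receptor transcript, with a log2 fold change of 1.68 and a standard error of 0.21 (FDR = 0.00128, edgeR's quasi-likelihood test). With all 18 libraries in the fit its FDR was 0.0623. FKBP5, a classical target of the receptor, was at 98.4 ± 18.1 CPM in MM1R and 115 ± 14.8 CPM in MM1S cells, within the spread of the libraries. TSC22D3, which encodes the glucocorticoid-induced leucine zipper, was at 99.2 ± 9.54 and 50.4 ± 31.1 CPM (FDR = 0.0976, edgeR's quasi-likelihood test). The most abundant members, FOXO3, METTL7A and TXNIP, had log2 fold changes of -0.07, -0.10 and 0.53, none of them a DEG. Short of the fold threshold but with an FDR under 0.05 (edgeR's quasi-likelihood test) were 4 members. PER1 (0.71) and CD53 (0.65) were higher in MM1R, and GLUL (-0.66) and CXCR4 (-0.62) lower. ZBTB16, also on the list, did not pass the filter, with 0, 1 and 0 counts in MM1R and 4, 41 and 30 in MM1S libraries. No glucocorticoid was among the treatments given in the labels, and levels under hormone were not measured here.

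Many of the genes with the largest differences were at or near 0 in one line. For 35 DEGs all MM1S libraries had at most 3 counts, and for 24 DEGs all MM1R libraries did. Of these, 8 and 11 had 0 counts in every library of the silent line. For such genes the ratio of summed, scaled counts is given with an exact 95% interval that covers counting error only.

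The cancer-testis antigens, which are expressed in germ cells and reactivated in tumors, were a list of 30 genes, of which 10 passed the filter. Of these, 6 were higher in MM1R and 0 were lower. These 6 were at or near 0 in MM1S and passed the filter only through the MM1R libraries, so no count or median over the list is read as a result. SSX1, a nuclear cancer-testis protein known from the fusion in synovial sarcoma, was at 14.0, 19.3 and 18.9 CPM in MM1R and had 1 count in 1 of the MM1S libraries. Its ratio was 1003 (interval 180 to 39666). CTAG2 (LAGE-1) was at 49.98, 64.3 and 76.6 CPM in MM1R and at 0, 0.261 and 0.304 CPM in MM1S libraries, with a log2 fold change of 8.34 and a standard error of 0.38 (FDR = 2.55e-06, edgeR's quasi-likelihood test).

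MAGEA6, a regulator of ubiquitin ligases, was at 4.92, 4.90 and 5.05 CPM in MM1R and at 0 in every MM1S library, which makes it at least 32.0-fold higher against a floor of 3 counts per library. MAGEA10 had 180 counts in MM1R and 1 count in MM1S (ratio 195, interval 34.6 to 7761). MAGEA12 was at 8.58, 8.23 and 11.9 CPM in MM1R and at 0.572, 0 and 0 CPM in MM1S libraries. Its neighbour on chromosome X, CSAG1, was at 10.1, 11.8 and 13.5 against 0.937, 0.0522 and 0 CPM. For both of these genes the MM1S reads came almost wholly from replicate 1, so that their log2 fold changes of 5.61 and 5.14 rose to 10.46 and 8.50 without it. Members of these families are near-identical copies, and reads could be split or lost between them. The 4 other tested members were not DEGs. Of these, MAGEA1 was at a mean of 95.3 CPM in MM1R and 87.1 CPM in MM1S cells, and SYCP3 at 73.9 and 55.8 CPM. The remaining 20 members, MAGEA3, MAGEC1 and PRAME among them, did not pass the filter in either line.

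CDKN2A, the gene of the INK4a and ARF tumor suppressors, was at 55.3, 89.9 and 104 CPM in MM1R and at 0, 0.104 and 0.254 CPM in MM1S libraries. CDKN2A had a log2 fold change of 9.35 with a standard error of 0.45 (FDR = 3.34e-06, edgeR's quasi-likelihood test). The gene-level counts do not separate the 2 transcripts. The neighbouring CDKN2B, which encodes the related inhibitor INK4b, had 181 counts in MM1R and 1 count in MM1S cells (ratio 197, interval 34.8 to 7804). The antisense RNA CDKN2B-AS1, which overlaps it, had 112 and 3 counts (ratio 40.5, interval 13.5 to 200). Use of strand in the counting was not stated, so the reads of this pair cannot be assigned with certainty. These were 3 of the 6 tested genes between KLHL9 and DMRTA1 on chromosome 9 (hg19 21329664 to 22455739). The other 3 were expressed in both lines and not DEGs. MTAP, the adjacent salvage enzyme gene, was at 51.2 ± 3.36 CPM in MM1R and 64.4 ± 1.83 CPM in MM1S cells (SD, n = 3). KLHL9 was at 15.5 ± 1.13 and 18.8 ± 1.505 CPM, and DMRTA1 at 6.57 ± 0.631 and 11.3 ± 0.763 CPM. MM1S cells thus expressed MTAP, KLHL9 and DMRTA1, but had almost no reads from the 3 tested genes between MTAP and DMRTA1.

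The upstream sequences of genes that were at or near 0 in one line are shown as they stand in the reference, since they are the stretches in which a promoter that is used by only 1 of the lines would lie. Each is the 250 bases before a RefSeq start site on GRCh38.p14, 5′ to 3′ in the direction of the gene, with CpG dinucleotides in capitals. CpG reads the same on both strands. MAGEA6 (chrX:152769690-152769939, minus strand) holds 15 CpG, CSAG1 (chrX:152733722-152733971, minus strand) 16 and SSX1 (chrX:48255142-48255391, plus strand) 3. The distal CDKN2A start (chr9:21995325-21995574, minus strand) holds 24 and the proximal start (chr9:21974858-21975107, minus strand) 20. SPIN3 (chrX:56995542-56995791, minus strand), silent in MM1R, holds 10.
MAGEA6: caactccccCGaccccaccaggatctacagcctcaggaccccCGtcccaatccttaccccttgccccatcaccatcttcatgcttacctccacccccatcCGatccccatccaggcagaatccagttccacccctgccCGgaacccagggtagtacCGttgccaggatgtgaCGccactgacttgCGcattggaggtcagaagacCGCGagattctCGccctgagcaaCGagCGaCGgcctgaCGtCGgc
CSAG1: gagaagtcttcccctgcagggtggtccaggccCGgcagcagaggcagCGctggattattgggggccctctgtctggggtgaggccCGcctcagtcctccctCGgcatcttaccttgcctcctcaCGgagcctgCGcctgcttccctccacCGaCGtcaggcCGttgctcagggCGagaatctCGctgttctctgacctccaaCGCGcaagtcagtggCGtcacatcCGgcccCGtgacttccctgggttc
SSX1: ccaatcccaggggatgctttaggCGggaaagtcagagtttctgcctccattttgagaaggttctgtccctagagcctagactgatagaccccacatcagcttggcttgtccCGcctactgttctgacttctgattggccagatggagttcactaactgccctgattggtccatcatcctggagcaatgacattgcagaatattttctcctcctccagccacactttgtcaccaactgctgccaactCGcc
CDKN2A, distal start: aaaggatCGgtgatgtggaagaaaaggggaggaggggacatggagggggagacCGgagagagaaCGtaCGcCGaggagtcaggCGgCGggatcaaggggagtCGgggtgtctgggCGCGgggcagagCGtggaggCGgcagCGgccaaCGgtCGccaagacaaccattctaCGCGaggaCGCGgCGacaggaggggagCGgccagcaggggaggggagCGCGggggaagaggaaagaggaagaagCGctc
CDKN2A, proximal start: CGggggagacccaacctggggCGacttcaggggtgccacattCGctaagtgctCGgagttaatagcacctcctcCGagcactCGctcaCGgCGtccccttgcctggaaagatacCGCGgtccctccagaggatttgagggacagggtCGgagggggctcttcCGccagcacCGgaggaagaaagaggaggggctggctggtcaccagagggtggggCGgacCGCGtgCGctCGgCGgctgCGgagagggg
SPIN3: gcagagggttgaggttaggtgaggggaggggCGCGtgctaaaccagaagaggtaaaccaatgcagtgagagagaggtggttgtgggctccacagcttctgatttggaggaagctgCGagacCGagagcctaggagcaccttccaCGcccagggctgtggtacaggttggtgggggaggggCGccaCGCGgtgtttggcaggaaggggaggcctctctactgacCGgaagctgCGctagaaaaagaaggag
Among all 35116 windows of this length in the table, the median was 11 CpG. The share of windows with no more CpG was 29.3% for the number in SSX1, 49.7% for SPIN3, 59.0% for MAGEA6, 61.0% for CSAG1 and 69.8% and 78.4% for the CDKN2A starts. The upstream sequences of these genes thus differed in their number of CpG. Methylation of these sequences was not analysed here.

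The other genes with the largest rise in MM1R had varied functions. QPRT, an enzyme of NAD synthesis, was at 18.7, 11.9 and 11.7 CPM in MM1R and at 0.468, 0 and 0 CPM in MM1S libraries, and its log2 fold change of 6.44 rose to 11.02 without MM1S replicate 1. PCSK1N, a secreted inhibitor of a prohormone convertase, was at 5.88, 6.62 and 7.63 against 0.312, 0 and 0 CPM (log2 fold change 5.93, or 9.95 without that library). In both genes the only MM1S reads were those of replicate 1. NES, the intermediate filament nestin, was at 64.3, 57.5 and 65.5 against 1.87, 0.888 and 0.710 CPM, with a log2 fold change of 5.75 and a standard error of 0.26 (FDR = 2.55e-06, edgeR's quasi-likelihood test). The noncoding RNA LINC01518 had 663 counts in MM1R and 5 in MM1S (ratio 144, interval 61.4 to 445). NLRP11, a member of the NLR family of innate immune sensors, was at 201, 202 and 211 against 6.30, 11.1 and 9.79 CPM, and ADGRE5 (CD97), an adhesion receptor of leukocytes, at 29.8, 28.1 and 28.2 against 0.572, 0.836 and 1.17 CPM. Both had an FDR of 2.27e-06 (edgeR's quasi-likelihood test) and tight replicates in each line.

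Of the genes lower in MM1R, MGST1, a microsomal glutathione transferase that reduces lipid peroxides, was at 19.9, 24.2 and 24.2 CPM in MM1S and had 1 count in 1 of the MM1R libraries. Its ratio was 1218 in favour of MM1S (interval 218 to 48131). MBP, best known as a myelin protein and also expressed in immune cells, was at 28.8, 29.9 and 27.4 CPM in MM1S and had 1 count in each MM1R library (ratio 511, interval 175 to 2481). SPIN3, of the spindlin family of histone methylation readers, was at 7.49, 7.52 and 8.77 CPM in MM1S and at 0 in every MM1R library, and was at least 47.0-fold lower. The replicates of these 3 genes lay close together in MM1S cells, with no separate behaviour of replicate 1.

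IGF2BP3, a fetal RNA-binding protein, was at 1.82, 7.26 and 7.05 CPM in MM1S and had 5 counts in all in MM1R (ratio 57.7, interval 24.4 to 179). PKP3, a desmosomal plakophilin, was at 2.08, 24.8 and 21.7 CPM in MM1S and at 0.159, 0.167 and 0.361 CPM in MM1R libraries (log2 fold change -6.13, standard error 0.97, FDR = 0.00441, edgeR's quasi-likelihood test). In both genes MM1S replicate 1 was the lowest of its line, and nearest to MM1R. The same held in treated cells for PKP3, at 0.948 and 1.31 CPM in the MM1S replicate 1 libraries against 16.7 to 21.4 CPM in the other treated MM1S libraries. PKP3 was no longer a DEG with limma-voom (FDR = 0.081).

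ZNF544, a zinc finger gene, was at 5.31, 7.57 and 8.21 CPM in MM1S and 0.106, 0.278 and 0.301 CPM in MM1R libraries. SDC2, a heparan sulfate proteoglycan, had a log2 fold change of -4.64, EYA4, a transcriptional coactivator, of -4.61, ANK3, an ankyrin, of -4.56 and VAV2, a guanine nucleotide exchange factor, of -4.18 (standard errors 0.31 to 0.68, FDR between 5.91e-05 and 0.00338, edgeR's quasi-likelihood test). Without MM1S replicate 1 the log2 fold change was -3.95 for EYA4 and -3.93 for ANK3. The lowest FDRs among lower genes, besides MBP and MGST1, were those of LHX8, GNE and JAKMIP1. LHX8, a LIM homeobox factor, was at 2.06, 2.06 and 1.98 against 29.2, 33 and 26 CPM. GNE, the key enzyme of sialic acid synthesis, was at 2.12, 1.78 and 1.68 against 19.8, 24.8 and 25.1 CPM. JAKMIP1, a microtubule-associated protein, had a log2 fold change of -2.30.

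**Figure D2:**
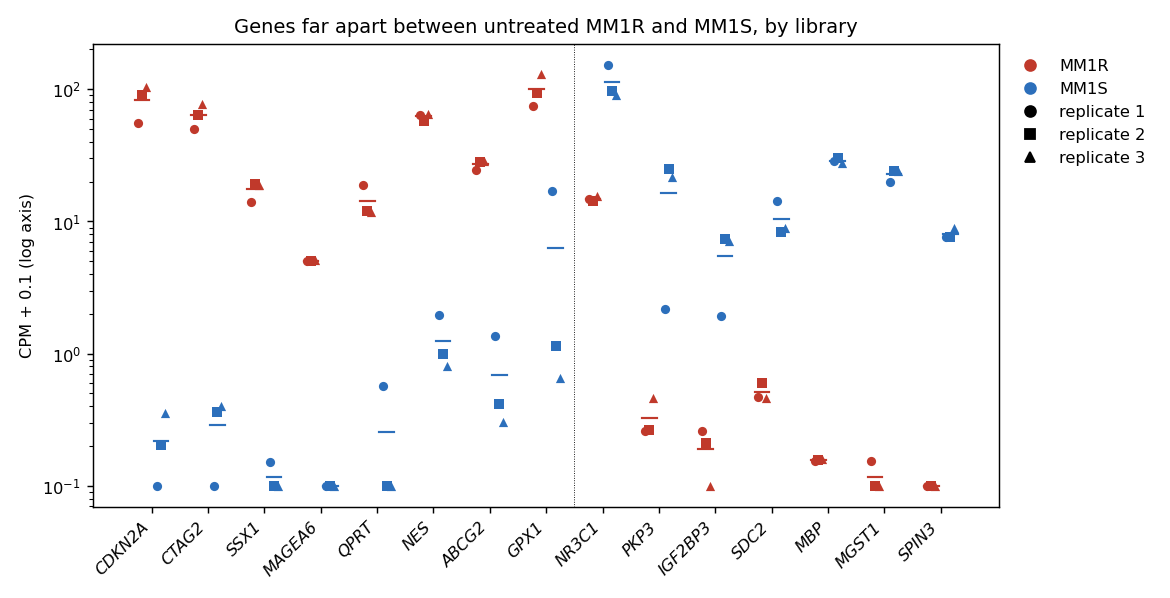
Expression of 15 genes in each untreated library, as CPM + 0.1 on a log axis, with MM1R in red, MM1S in blue, a marker shape for each replicate and a line at the mean of 3 libraries. Genes left of the dotted line were higher in MM1R. MM1S replicate 1 lies nearer to MM1R for QPRT, GPX1 and PKP3, and with the other MM1S libraries for MBP, MGST1 and SPIN3.

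For some genes MM1S replicate 1 lay between the lines. GPX1, the selenium-dependent peroxidase, was picked out as an example after its values were seen. It was at 74.4, 94.3 and 130 CPM in MM1R and at 17, 1.04 and 0.558 CPM in MM1S libraries, with a log2 fold change of 4.0 and a standard error of 0.87 (FDR = 0.0182, edgeR's quasi-likelihood test), or 6.95 without MM1S replicate 1. It was no longer a DEG without MM1R replicate 2 (FDR = 0.0598) or MM1S replicate 2 (FDR = 0.0516). The treated libraries had the same order, at 12 and 14.9 CPM in MM1S replicate 1 and 0.534 to 0.918 CPM in the other MM1S libraries. SLC47A1, a multidrug exporter picked out in the same way, was at 21.2, 24.8 and 28.4 against 4.68, 0.104 and 0.406 CPM. In contrast, CDKN2A and CTAG2, which were well expressed in every MM1R library, had 0 counts in MM1S replicate 1.

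Plasma cell genes were expressed in both lines. Of the 10 plasma cell markers, 1 was a DEG. CD38, the surface ectoenzyme that therapeutic antibodies target in myeloma, was at 43.3, 50.4 and 42.6 CPM in MM1R and 54.6, 105 and 118 CPM in MM1S libraries. Its log2 fold change of -1.03 (standard error 0.24, FDR = 0.0255, edgeR's quasi-likelihood test) was close to the threshold. CD38 was not a DEG without MM1R replicate 2 or 3 or MM1S replicate 2 or 3, with FDRs of 0.0773, 0.0662, 0.0898 and 0.103. The syndecan SDC1, the receptor TNFRSF17 (BCMA), the transcription factors IRF4, PRDM1, XBP1 and POU2AF1, the surface receptor SLAMF7 and the chaperone MZB1 had log2 fold changes between 0.05 and 0.38, and none had an FDR under 0.05. JCHAIN, which joins polymeric immunoglobulins, was at 12897, 12564 and 11252 CPM in MM1R and 7316, 6373 and 5831 CPM in MM1S libraries. Its log2 fold change of 0.91 (FDR = 0.00322, edgeR's quasi-likelihood test) was short of the fold threshold and reached 1.00 without MM1S replicate 1. IGLL5, whose locus overlaps the lambda light chain genes, was the other immunoglobulin gene tested, at 24394, 25482 and 29125 against 22175, 13260 and 10664 CPM (FDR = 0.0703, edgeR's quasi-likelihood test). The other 14 genes of that list did not pass the filter or were not listed under their symbols.

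Among 23 tested plasma and B cell genes, 3 were higher and CD38 was lower in MM1R (17.4%, against 4.91% of all tested genes). One of the higher genes, CD79A, passed the filter on low counts only through the MM1R libraries, so this share is not read as a result. CD79A and CD79B encode the signaling chains of the B cell receptor. CD79A was at 3.71, 3.45 and 2.28 against 0.260, 0.104 and 0.152 CPM (log2 fold change 4.14, standard error 0.41, FDR = 0.000385, edgeR's quasi-likelihood test). CD79B was expressed in both lines, at 41.9, 47.3 and 52.4 against 30.9, 18.7 and 16.7 CPM (log2 fold change 1.09, FDR = 0.0121, edgeR's quasi-likelihood test). It was not a DEG without MM1R replicate 2 (FDR = 0.0516), MM1S replicate 2 (0.98 on the log2 scale) or MM1S replicate 3 (0.92). Without MM1S replicate 1 the log2 fold change of CD79B was 1.41. DERL3, a component of protein degradation in the endoplasmic reticulum, had a log2 fold change of 1.12, which was 0.99 without MM1R replicate 3 and 1.00 without MM1S replicate 3. The list had a positive log2 fold change in 20 of 23 genes and a median of 0.27.

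Over all tested genes, 4.91% were DEGs and 11.2% had an FDR under 0.05 (edgeR's quasi-likelihood test). Of 12 tested antigen presentation genes, 0 were DEGs and 1 had an FDR under 0.05. CD74, the invariant chain, and ERAP2, a peptide-trimming protease, were among the most abundant of them and had log2 fold changes of 0.08 and -0.06. The table splits some of these genes over several copies of a symbol, and 14 members of the list were not tested, so these values are uncertain. MAF, a transcription factor activated by translocation in the MM1 lines, was at 1135 ± 256 CPM in MM1R and 1113 ± 215 CPM in MM1S cells, with a log2 fold change of 0.03 (standard error 0.18). Of 17 tested MAF targets and translocation genes, 3 were DEGs (17.6%, against 4.91% of all tested genes). CX3CR1, a chemokine receptor, was at 36.7, 51.1 and 63.3 against 8.59, 0.627 and 1.17 CPM, and its log2 fold change of 3.86 (FDR = 0.00721, edgeR's quasi-likelihood test) was 5.79 without MM1S replicate 1. The MYC family genes MYCL and MYCN were lower in MM1R, both with a log2 fold change of -1.49 (FDR = 0.00243 and 0.0281, edgeR's quasi-likelihood test). MYCN was under 2.5 CPM on average in both lines and was not a DEG without MM1R replicate 2 or 3 or MM1S replicate 2, with FDRs of 0.124, 0.0730 and 0.0631.

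Of 22 tested adhesion and homing receptors, 1 was higher and 1 lower in MM1R (9.09%, against 4.91% of all tested genes). ICAM1, a ligand of leukocyte integrins, was at 72.7, 59.0 and 56.3 CPM in MM1R and 20.3, 4.13 and 4.36 CPM in MM1S libraries. ICAM1 differed by 2.71 on the log2 scale with a standard error of 0.51 (FDR = 0.0104, edgeR's quasi-likelihood test) and 3.88 without MM1S replicate 1. ITGA4, the integrin subunit of VLA-4 by which plasma cells hold to the marrow stroma, was lower in MM1R, at 120, 127 and 94.6 against 219, 245 and 254 CPM. Its log2 fold change was -1.07 (standard error 0.13, FDR = 0.00128, edgeR's quasi-likelihood test), and -0.96 without MM1R replicate 3. The libraries of the lines did not overlap for 15 of the 22 receptors, and for 32.7% of all genes tested.

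Of 27 tested cell cycle genes, the DEGs were CDKN2A and CDKN2B, described above (7.41%, against 4.91% of all tested genes), and 5 of the 27 had a positive log2 fold change. Both DEGs passed the filter on low counts only through the MM1R libraries, so this share is not read as a result. In the list of BCL2 family members, caspases and death receptors, 4 of 34 genes were DEGs (11.8%, against 4.91% of all tested genes). Of these, BCL2L2 passed the filter on low counts only through the MM1R libraries and HRK only through the MM1S libraries. This share is thus not read as a result. BCL2L2, a survival protein of the BCL2 family, was at 3.23, 2.73 and 2.705 CPM in MM1R and 0.260, 0.157 and 0.203 CPM in MM1S libraries (log2 fold change 3.76, standard error 0.34, FDR = 0.000269, edgeR's quasi-likelihood test). TNFRSF10B, which encodes the death receptor for TRAIL, was at 90.5, 75.4 and 76.9 against 36.4, 40.6 and 41.1 CPM, a log2 fold change of 1.04, and of 0.93 and 0.98 without MM1R or MM1S replicate 1. The pro-apoptotic genes HRK and PMAIP1 (NOXA) were lower in MM1R. HRK was under 1.3 CPM in every library and had a log2 fold change of -2.14. PMAIP1 was at 9.11, 7.40 and 7.57 against 11.2, 28.1 and 16.4 CPM, a log2 fold change of -1.21 (FDR = 0.0299, edgeR's quasi-likelihood test). HRK was not a DEG without MM1R or MM1S replicate 2 (FDR = 0.10 and 0.0654), nor PMAIP1 without replicates 2 or 3 of either line (FDR = 0.0711 to 0.115).

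Of 38 tested genes of ferroptosis and iron handling, 3 were higher and 0 lower in MM1R (7.89% against 4.91% of all tested genes), with a median log2 fold change of -0.02. SQLE, an enzyme of cholesterol synthesis, was at 62.9, 71.0 and 64.1 against 32.0, 31.0 and 30.2 CPM (log2 fold change 1.09, standard error 0.10, FDR = 0.000359, edgeR's quasi-likelihood test). HSPB1, a small heat shock protein, was at 41.8, 64.9 and 65.1 against 21.7, 24 and 22.3 CPM (log2 fold change 1.34, FDR = 0.00166, edgeR's quasi-likelihood test). With all 18 libraries in the fit its FDR was 0.281. FTL, the ferritin light chain, was at 2079, 3198 and 4989 against 996, 1712 and 1953 CPM, with an FDR of 0.0492 that passed only narrowly (edgeR's quasi-likelihood test). It was a DEG in 1 of the 6 fits that left out a library, the one without MM1R replicate 1, and had FDRs of 0.0688 to 0.129 in the others. GPX4, the target of RSL3, was at 300 ± 40.9 CPM in MM1R and 215 ± 17.5 CPM in MM1S cells, a log2 fold change of 0.48 that is short of the fold threshold (FDR = 0.0374, edgeR's quasi-likelihood test). FTH1, the ferritin heavy chain, was at 37.5 ± 4.42 against 58.7 ± 7.36 CPM, with a log2 fold change of -0.64 that is also short of the fold threshold (FDR = 0.0155, edgeR's quasi-likelihood test). FTL and FTH1 have many processed pseudogenes and their counts are uncertain.

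**Figure D3:**
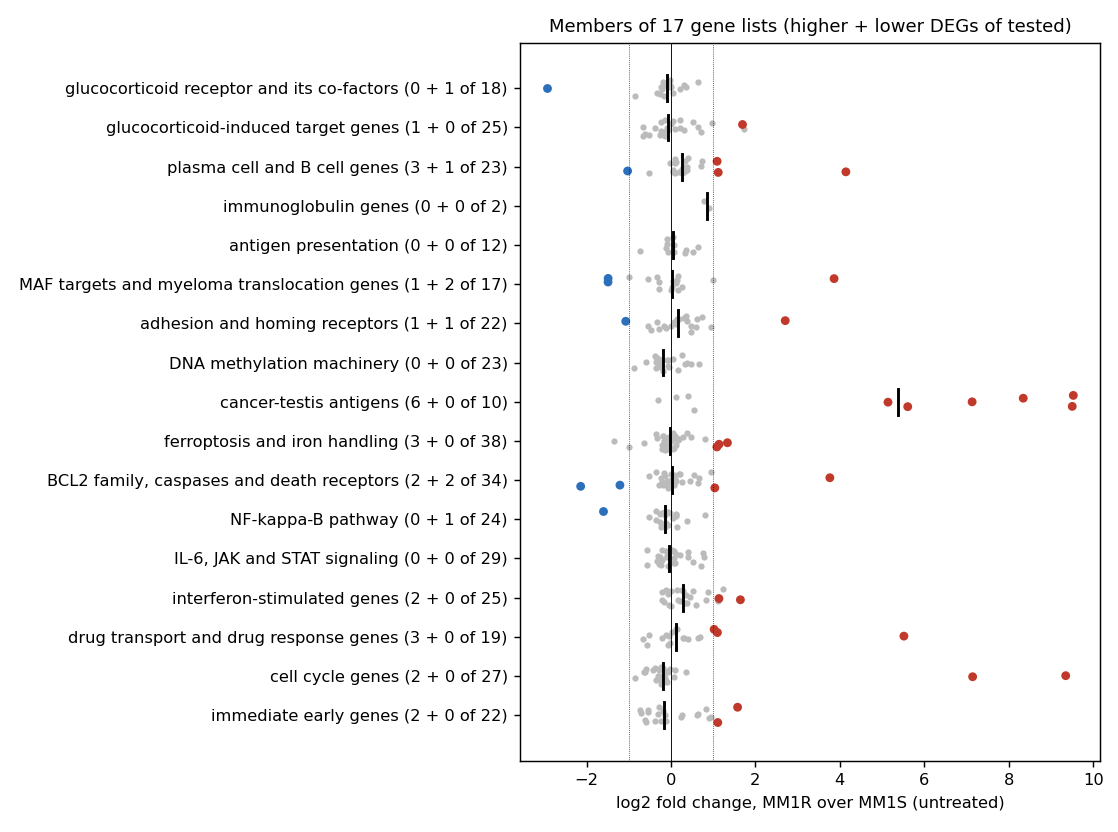
Log2 fold change of MM1R over MM1S for each tested member of 17 gene lists, with DEGs higher in MM1R in red, lower in MM1R in blue, other members in grey and a bar at each list's median. The numbers beside each list are its higher and lower DEGs of the genes tested, and dotted lines mark the fold threshold. The 6 cancer-testis antigens in red passed the filter on low counts only through the MM1R libraries, and 20 of that list's 30 genes are not shown. CDKN2A, CDKN2B, CD79A, BCL2L2, ABCG2 and IFIT1 also passed it only through the MM1R libraries, and HRK only through the MM1S libraries.

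Among drug transport and drug response genes, 3 of 19 were higher in MM1R (15.8%, against 2.82% of all tested genes) and 0 were lower. One of them, ABCG2, passed the filter on low counts only through the MM1R libraries, so this share is not read as a result. ABCG2, a multidrug efflux pump, was at 24.4, 28.2 and 28.8 CPM in MM1R and 1.25, 0.313 and 0.203 CPM in MM1S libraries. ABCG2 had a log2 fold change of 5.52 with a standard error of 0.41 (FDR = 8.21e-05, edgeR's quasi-likelihood test), and 6.68 without MM1S replicate 1. GSTM2, a glutathione transferase, had a log2 fold change of 1.10 (FDR = 0.00472, edgeR's quasi-likelihood test). ABCB1, the classical multidrug resistance pump, did not pass the filter.

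Of the 25 tested interferon-stimulated genes, EPSTI1 and IFIT1, which are both induced by interferon, were higher (8%, against 2.82% of all tested genes) and 0 were lower. IFIT1 passed the filter on low counts only through the MM1R libraries, so this share is not read as a result. EPSTI1 was at 18.3, 20.5 and 17.7 against 10.0, 8.93 and 6.74 CPM, with a log2 fold change of 1.14 that was 0.99 without MM1S replicate 3. IFIT1 was at 1.85, 2.89 and 3.55 against 1.04, 0.470 and 1.12 CPM and was not a DEG without replicates 2 or 3 of either line (FDR = 0.0602 to 0.0974, edgeR's quasi-likelihood test). Of 22 tested immediate early genes, 2 were DEGs (9.09%, against 4.91% of all tested genes), and the phosphatase gene DUSP2 (log2 fold change 1.11, and 0.97 without MM1S replicate 3) and the nuclear receptor gene NR4A1 (1.58) were higher. NR4A1 was at 7.09, 6.23 and 3.19 against 1.04, 2.77 and 1.72 CPM. It was not a DEG without MM1R replicate 1 or 2 or MM1S replicate 3 (FDR = 0.0671, 0.115 and 0.114, edgeR's quasi-likelihood test).

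In the NF-kappa-B pathway, REL, which encodes the c-Rel subunit, was the only DEG of 24 tested genes (4.17%, against 4.91% of all tested genes). It was at 2.17, 1.17 and 1.14 CPM in MM1R and 6.35, 4.13 and 3.35 CPM in MM1S libraries (log2 fold change -1.61, standard error 0.35, FDR = 0.0176, edgeR's quasi-likelihood test). It was not a DEG without MM1R replicate 2 (FDR = 0.0887) or replicate 3 (FDR = 0.0507), or with all 18 libraries in the fit (FDR = 0.181). NFKB2, TNFAIP3 and TNIP1, the most abundant members, had log2 fold changes of -0.12, -0.16 and 0.12. The IL-6, JAK and STAT list held 0 DEGs in 29 tested genes (against 4.91% of all tested genes). By an FDR under 0.05 alone (edgeR's quasi-likelihood test) the list held 4, against 11.2% of all tested genes. IL6R, IL6ST and IL2RG, its most abundant members, had log2 fold changes of 0.07, -0.32 and 0.53. The DNA methylation machinery held 0 DEGs in 23 tested genes (against 4.91% of all tested genes). It had 3 genes with an FDR under 0.05 (against 11.2% of all tested genes). Among these, the maintenance methyltransferase DNMT1 had a log2 fold change of -0.36 and the de novo methyltransferase DNMT3B of -0.88, while MBD3, a subunit of a chromatin remodeling complex, had one of 0.67. Its most abundant members, ZBTB38, IDH2 and MAT2A, had log2 fold changes of -0.23, 0.16 and -0.06.

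The treated libraries were used to ask whether the same genes separated the lines in other cells of the same passages. Under RSL3, 417 of 13377 tested genes (3.12%) were DEGs between MM1R and MM1S, 258 higher (1.93%) and 159 lower (1.19%). Of the 651 untreated DEGs, 622 were tested there, 616 had the same direction (99.0%) and 323 were DEGs in the same direction, which is 49.6% of the untreated and 77.5% of the RSL3 DEGs. None was a DEG in the opposite direction (0 of 622). The median ratio of the log2 fold change under RSL3 to the untreated one was 0.93. With Fer-1 and RSL3, where MM1R replicate 2 was left out, 329 of 13785 genes (2.39%) were DEGs, 193 higher (1.4%) and 136 lower (0.987%), and 276 of them were shared with the untreated lines in the same direction. These libraries shared no RNA with the untreated ones but came from the same passages. MM1R replicate 2 with Fer-1 and RSL3 had intermediate values. On a linear scale where the mean of the line with lower expression under RSL3 is set to 0% and that of the other line to 100%, the levels were as follows. Over 75 DEGs that were over 8-fold higher in MM1R under RSL3 it was at a median of 51.7% of the MM1R level, and over 43 DEGs over 8-fold higher in MM1S at 48.7% of the MM1S level. With it in the fit, 127 genes were DEGs.

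Over these same genes, chosen in the RSL3 libraries alone, each untreated library matched its label. The MM1R untreated libraries were at medians of 90.2% to 97.7% of the MM1R level and -0.31% to -0.05% of the MM1S level. MM1S replicates 2 and 3 were at 97.6% and 100.1% of the MM1S level. MM1S replicate 1 was at 88.6% of the MM1S level and 2.86% of the MM1R level, and its upper quartile over the 75 genes was 11.5%.

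**Figure D4:**
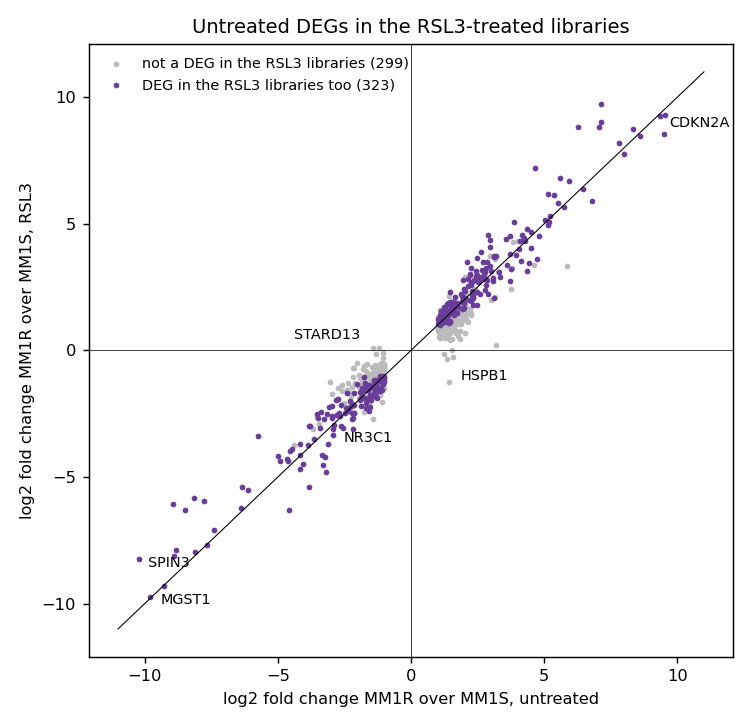
Log2 fold change of MM1R over MM1S in RSL3-treated cells (y axis) against that in untreated cells (x axis) for the 622 untreated DEGs tested in both, with those that were DEGs under RSL3 in purple. Points at the line have equal differences. HSPB1 and STARD13 are among the 6 genes with opposite signs, and values of genes at 0 in one line depend on the fit.

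A direct test of whether the line difference changed with RSL3, as an interaction over 12 libraries, gave 0 DEGs among 13958 genes with edgeR's quasi-likelihood test. Before adjustment, 177 genes (1.27%) had a p under 0.05. That is fewer than the share of 0.05 that a calibrated test gives when no gene differs. The test was thus conservative here, and 0 DEGs does not show that the line difference was unchanged by RSL3. DESeq2 called 1 gene, the transcriptional repressor HES1, with a log2 difference of 1.82 (adjusted p = 0.00798). HES1 was at 6.88, 7.12 and 13 CPM in untreated MM1R and 12.3, 7.68 and 9.02 CPM in untreated MM1S libraries, a log2 fold change of -0.10, against 1.71 under RSL3. The next smallest unadjusted p-values of the edgeR quasi-likelihood test were those of ENTPD3-AS1, STARD13, LOC112268419 and RRM2B (0.000728 to 0.00529). Of these, STARD13, a GTPase activating protein, was a DEG in untreated cells, at 0.635, 0.723 and 0.902 against 2.08, 2.45 and 1.52 CPM, with a log2 fold change of -1.42 in untreated cells and 0.08 under RSL3. Without MM1R or MM1S replicate 2 it was not a DEG (FDR = 0.102 and 0.105). RRM2B, a ribonucleotide reductase subunit, had a log2 fold change of -0.58 in untreated cells and 0.14 under RSL3.

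The DEGs were spread over all chromosomes. By gene symbol, 90.0% of the tested genes could be placed on hg19, and the median log2 fold change per chromosome ranged from -0.15 on chromosome 21 to 0.15 on chromosome 22. Chromosome X held 25 higher and 9 lower DEGs among 418 tested genes (5.98% and 2.15%, against 2.82% and 2.09% of all tested genes), and chromosome 4 held 6 higher and 22 lower among 457 (1.31% and 4.81%). The medians moved with the GC content of the transcripts. In 5 bins of 2407 genes by GC content, the median log2 fold change went from -0.14 in the bin of lowest GC to 0.16 in that of highest GC. With offsets for GC content, chosen after seeing the data, the median went from 0.14 to 0.02 on chromosome 19 and from -0.11 to -0.05 on chromosome 4. On chromosome 21 it moved less, from -0.15 to -0.12.

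**Figure D5:**
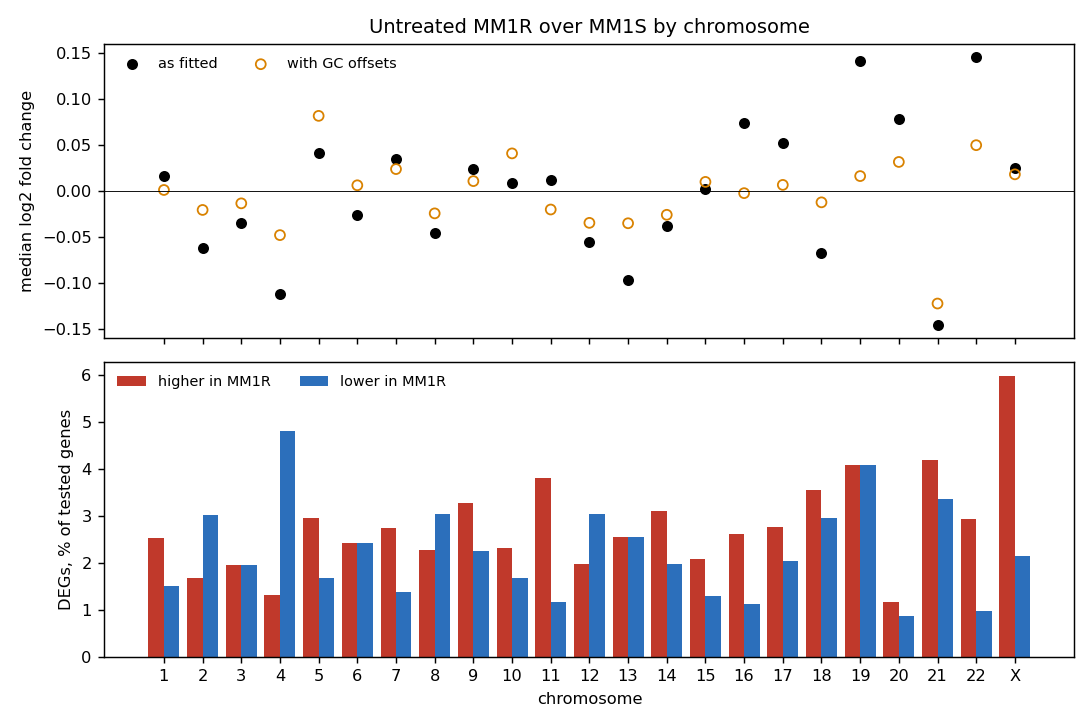
Upper panel, median log2 fold change of MM1R over MM1S for the tested genes of each chromosome, as fitted (black) and with GC offsets (open orange). Lower panel, DEGs higher (red) and lower (blue) in MM1R as a percentage of the tested genes. The share of higher DEGs was 5.98% on chromosome X and that of lower DEGs 4.81% on chromosome 4.

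Neighbouring genes differed together in a few places, which were picked out after their values were seen. Among 9391 windows of 15 neighbouring genes, the lowest median log2 fold change was -0.88, between EMC10 and ZNF468 on chromosome 19 (50979657 to 53360902), and -0.83 with GC offsets. The highest medians were 0.66, between NDUFS7 and ADAT3 on chromosome 19 (1383526 to 1926012), 0.62, between PSMG3 and RNF216P1 on chromosome 7 (1606968 to 5080306), and 0.61, between TPGS1 and POLR2E on chromosome 19 (507497 to 1095379), with 15 of 15 genes positive in each. With GC offsets, the first and last of these were at 0.47 and 0.44. The stretch from ZNF350 to ZNF765 (52467593 to 53933666) is a cluster of KRAB zinc finger genes, which encode DNA-binding repressors. Of its 22 tested genes, 20 had a negative log2 fold change, 8 were lower DEGs and 0 were higher, with a median of -1.0. ZNF480 was at 5.40, 4.34 and 3.73 CPM in MM1R and 12.4, 17.4 and 21 CPM in MM1S libraries (log2 fold change -1.91, FDR = 0.00121, edgeR's quasi-likelihood test). ZNF766 was at 9.16, 9.29 and 11.9 against 18.1, 21.9 and 23.6 CPM (log2 fold change -1.07, and -0.99 without MM1S replicate 3), and ZNF888 had 3 counts in MM1R and 116 in MM1S (ratio 35.6, interval 11.9 to 175). PPP2R1A, a phosphatase subunit gene inside the cluster that is no zinc finger gene, was at 226, 271 and 295 against 236, 247 and 231 CPM. The paralogs share sequence, so reads between them are uncertain.

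Over the genome, 398 genes with a ZNF symbol were tested, of which 32 (8.04%) were lower and 13 (3.27%) higher in MM1R, against 2.09% and 2.82% of all tested genes, with a median log2 fold change of -0.01. The ZNF genes of chromosome 19 held 21 lower and 8 higher DEGs of 178, and those elsewhere 11 and 5 of 215. On the short arm of chromosome X, 4 of the 5 tested genes from PRKX to PNPLA4 (3522381 to 7895780) were higher in MM1R. PRKX, a protein kinase gene, was at 135, 139 and 130 against 68.6, 57.7 and 58.1 CPM. PUDP, a phosphatase gene, was at 61.3, 64.4 and 65.5 against 31.6, 27.7 and 26 CPM, and STS, steroid sulfatase, at 59.8, 53.7 and 38.0 against 27.2, 18.4 and 18.3 CPM. These 3 genes had log2 fold changes of 1.13, 1.17 and 1.25, and PNPLA4, a lipase gene, of 2.59 (FDR between 0.000275 and 0.00542, edgeR's quasi-likelihood test). Copy number was not measured here.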

How the data were processed

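RNA was sequenced from untreated MM1R and MM1S cells. The authors checked the reads with FastQC 0.11.5, aligned them to hg19 with STAR 2.7.3a and deposited raw read counts per gene symbol. The counting tool, annotation and strand setting are not given in the sources used here. A second deposited table of normalized values was not used.

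The counts of the 6 untreated libraries were filtered with filterByExpr (minimum count 10), which kept 13270 genes with 99.9% of the counts, scaled with TMM and fitted with edgeR 4.0.16 (R 4.3.3), with no block and 4 residual degrees of freedom. Standard errors are the log2 fold change divided by the square root of F. DESeq2 1.42.0 and limma 3.58.1 gave alternatives. Ratios at low counts have exact binomial intervals, with a floor of 3 counts per library (0.152 to 0.180 CPM). Positions came from a GENCODE annotation of hg19, joined by symbol. Tested on simulated data, the fit called 197 of 200 genes changed 4-fold among 13093 genes, with 2 false calls. The changed genes were not drawn from those of lowest expression, and no simulated library stood apart from its line. Smaller changes, and genes near 0 in one line, were not tested in this way.

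The genes named were NR3C1, the 10 DEGs with the largest log2 fold change in each direction among those whose libraries do not overlap and whose higher mean is at least 5 CPM, the 5 with the smallest FDR in each direction, up to 6 DEGs of each list (and where a list has under 2 DEGs, its 3 most abundant members), the plasma cell markers, and the 5 genes with the smallest interaction p. Members and lists were chosen with earlier results of these data known. Some members and 1 list are not reported here.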

Additional observations from a re-analysis of the deposited data

How the results depend on the processing

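NR3C1 was lower in MM1R under every alternative run for it (log2 fold change -2.67 to -3.08). Of the 91 named genes, 59 were DEGs, and 38 of these remained DEGs under every alternative in which they were tested. The sign of log2 fold changes near 0 could change, as for HES1 (-0.10, and 0.10 without MM1S replicate 1) and IRF4 (0.13 and -0.03). Untreated DEGs numbered 985 when no count filter was used, 377 with a minimum count of 50, 182 with glmTreat, 1485 without the fold criterion, 353 at an FDR under 0.01, and 398 to 1021 with 1 library left out. DESeq2 called 674 and limma-voom 693. Under RSL3 the number was 637 with DESeq2, 635 without the filter, 702 with 17 libraries in the fit and 118 to 882 with 1 library left out. With Fer-1 and RSL3 it was 127 with the MM1R replicate that stands apart and 110 to 852 with 1 library left out. The DEGs shared by untreated and RSL3 libraries numbered 485 with 17 libraries and 109 to 461 with 1 left out, the DEGs at the floor in one line 91 with a floor of 5 counts and 68 to 150 with 1 library left out, and the interaction DEGs 1 with DESeq2. The range of chromosome medians was 0.29 and fell to 0.20 with GC offsets. List DEGs numbered 28 to 53 under every alternative run, against 39. Replicate numbers are shared by the lines, and the deviations of same-numbered libraries correlated at 0.259, 0.0961 and 0.269. Those of differently numbered libraries correlated at -0.296 to 0.0445. The passages differ between the lines, and the main fit did not pair the libraries by number. With the replicate block, 789 genes were DEGs (480 higher, 309 lower), NR3C1 had a log2 fold change of -2.90, the lists held 40 DEGs and RSL3 gave 441. The interaction was not run with that block. It gave 0 DEGs with passage within line as the block. In each line the library correlated best with that of its own number. The depth, at 17817681 to 19368343 counts, leaves genes under 0.152 to 0.180 CPM, the floor of 3 counts, near or below detection in a single library.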

Other observations

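Several well-expressed genes that stand on no list also separated the lines. These were picked from the DEGs with the highest CPM after their values were seen. SLC38A5, a transporter of glutamine and other amino acids, was at 1271, 1392 and 1862 CPM in MM1R and 343, 374 and 417 CPM in MM1S libraries (log2 fold change 2.00, standard error 0.16, FDR = 0.000123, edgeR's quasi-likelihood test). It was among the DEGs with the most reads. RAD21, a cohesin subunit, was at 199, 217 and 207 against 435, 516 and 534 CPM (log2 fold change -1.25, FDR = 0.000258, edgeR's quasi-likelihood test). JUP, a junction plakoglobin, was lower in MM1R at 54.9, 54.8 and 55.8 against 102, 123 and 118 CPM.

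PLXNB2, a semaphorin receptor, PRKCD, a protein kinase C isoform, and ESAM, an endothelial and leukocyte adhesion molecule, were higher in MM1R. Their log2 fold changes were 1.97, 1.45 and 2.28 with standard errors of 0.13, 0.11 and 0.19, and all 3 were DEGs in each of the 6 fits that left out 1 library. SLC43A3, a purine base transporter, was at 76.5, 109 and 132 against 19.3, 2.35 and 1.27 CPM. As for GPX1, its MM1S replicate 1 stood nearest to MM1R, and its log2 fold change of 3.80 was 5.87 without that library.

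Of 477 tested lncRNA genes, 25 were higher and 5 lower in MM1R (6.29% DEGs), with a median log2 fold change of 0.21. Among 11256 protein-coding genes, 293 were higher and 253 lower (4.85% DEGs), with a median of 0.00. The share of DEGs over all tested genes was 4.91%.

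CDKN1A, which encodes the cell cycle inhibitor p21, was at 221, 291 and 350 CPM in MM1R and 42.6, 116 and 106 CPM in MM1S libraries (log2 fold change 1.70, standard error 0.32, FDR = 0.0107, edgeR's quasi-likelihood test). Without MM1S replicate 1 its log2 fold change was 1.37. PHLDA3, an inhibitor of AKT, was at 16.9, 25.3 and 35.4 against 2.03, 3.34 and 3.65 CPM (log2 fold change 3.10, standard error 0.31). The libraries of the lines did not overlap for either gene, as was so for 32.7% of all genes tested. Both were DEGs in each of the 6 fits that left out 1 library.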
